A study of Mus musculus with 12 samples.

Results

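The genes described here are 9 genes of glycogen metabolism: 4 subunits that target protein phosphatase 1 to glycogen (Ppp1r3b, Ppp1r3c, Ppp1r3d, and Ppp1r3g), 3 enzymes of glycogen synthesis (Ugp2, Gys2, and Gbe1), the liver phosphorylase Pygl, and Phka2, a subunit of phosphorylase kinase. They were picked by symbol from the 22456 genes of the expression table, with their values in the 4 groups already known, so their levels and fold changes are a description and carry no test. They lie apart in the genome, on chromosomes 8 (Ppp1r3b), 19 (Ppp1r3c), 2 (Ppp1r3d), 13 (Ppp1r3g), 11 (Ugp2), 6 (Gys2), 16 (Gbe1), 12 (Pygl), and X (Phka2). The libraries came from whole-liver RNA of 12 adult male BALB/cByJ mice. Both genotypes, Lpin1+/+ and Lpin1-/-, were sampled in the fasted and in the refed state, with 3 mice each. All mice were singly caged and fasted for 16 hours overnight, and the refed groups then had chow for 5 hours, so refed livers were also taken at a later time of day. The Lpin1-/- mice carry the spontaneous fld (fatty liver dystrophy) allele and the Lpin1+/+ mice were their littermates. The mutants lack lipin 1, a phosphatidate phosphatase and transcriptional coregulator, in every tissue from birth, and fld mice have little fat tissue, so loss of lipin 1 in liver and in other tissues cannot be told apart here.

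Liver stores glucose as glycogen after a meal and releases it between meals. Ugp2 makes UDP-glucose, glycogen synthase (Gys2) links it into chains, and the branching enzyme Gbe1 adds branch points, whereas phosphorylase (Pygl) cuts glucose units off the chains. Phosphorylation switches synthase off and phosphorylase on, and protein phosphatase 1 reverses both once a Ppp1r3 subunit has tethered it to the glycogen particle. Ppp1r3b is the main such subunit of liver, Ppp1r3c is found in many tissues, and Ppp1r3g is a subunit tied to the control of liver glycogen by feeding.

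Promoter windows of 300 bases around an annotated start, most of them before it, were taken from RefSeq (GRCm38.p6) and were at hand for 7 of the 9 members. The 3 below are shown because Ppp1r3g had the largest differences between groups among the members, Pygl differed by genotype in opposite directions in the 2 feeding states, and Ppp1r3c overlapped in all 4 comparisons. Capitals mark matches, on either strand, to the half-site of the cyclic AMP response element (TGACG, reverse complement CGTCA), the E-box (CACGTG), or the CCAAT box (CCAAT, reverse complement ATTGG).
Ppp1r3g, chr13:35967656-35967955, plus strand: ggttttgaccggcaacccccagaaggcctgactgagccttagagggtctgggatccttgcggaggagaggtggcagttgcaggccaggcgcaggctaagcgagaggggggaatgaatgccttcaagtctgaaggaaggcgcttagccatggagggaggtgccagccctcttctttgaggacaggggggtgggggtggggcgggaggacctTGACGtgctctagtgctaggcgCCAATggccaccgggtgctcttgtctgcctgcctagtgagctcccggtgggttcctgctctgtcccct
Pygl, chr12:70227634-70227933, minus strand: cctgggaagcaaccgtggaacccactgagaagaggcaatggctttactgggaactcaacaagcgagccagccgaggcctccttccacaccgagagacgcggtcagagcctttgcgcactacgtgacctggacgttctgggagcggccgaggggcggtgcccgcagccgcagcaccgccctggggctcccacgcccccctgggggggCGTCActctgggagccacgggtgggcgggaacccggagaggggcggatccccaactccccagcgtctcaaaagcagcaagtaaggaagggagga
Ppp1r3c, chr19:36736555-36736854, minus strand: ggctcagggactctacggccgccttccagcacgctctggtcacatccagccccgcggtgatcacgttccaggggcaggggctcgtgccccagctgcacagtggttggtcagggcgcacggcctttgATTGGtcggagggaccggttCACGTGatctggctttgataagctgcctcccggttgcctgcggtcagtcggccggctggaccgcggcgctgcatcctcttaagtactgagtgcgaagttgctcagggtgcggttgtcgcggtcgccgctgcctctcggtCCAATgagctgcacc

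The half-site TGACG lay close to the RefSeq start in both Ppp1r3g (40 bases before it) and Pygl (44 bases before it, on the reverse strand). It was also found in the Ppp1r3d window. It is a common run of letters that 20.8% of the 32851 RefSeq promoter windows hold, so these matches are a description only. The CCAAT box was found in Ppp1r3g, Ppp1r3c, and Ugp2 (37.4% of all windows), and the E-box in Ppp1r3c and Ppp1r3d (7.15%). The full cyclic AMP response element TGACGTCA (1.79% of all windows) and the forkhead site TGTTTAC (3.65%) had no match in the 8 windows of the members. The glucocorticoid half-site AGAACA (19.0%) matched in Phka2 alone, and TATAAA (13.6%) in none.

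Values are RPKM, reads per kilobase of gene length and per unit of mapped reads. RPKM falls in steps of 1 read, which gave depths of 94.0 to 125.6 M reads per library and the reads behind each value, and the lengths the authors divided by match the coding part of a gene. For genes with long untranslated parts it was not settled which reads were counted, so levels of different genes, given here per coding length, compare only roughly. Lpin1 had 206 to 6629 reads in the 6 Lpin1+/+ libraries and 2 to 17 in the 6 Lpin1-/- libraries, as the labels have it. The fasted Lpin1+/+ group was uneven in this gene, with 22.0 RPKM in replicate 1 and 0.726 and 1.76 RPKM in replicates 2 and 3. Refed Lpin1+/+ liver had 0.784 to 2.92 RPKM. The hepatocyte markers Alb, Apoa1, Ttr, Serpina1a, Tat, and Cps1 summed to 32400 to 76000 RPKM, whereas the 4 skeletal muscle markers stayed below 0.9 RPKM in sum (0.157 to 0.866) and the 3 adipocyte markers at 0 to 0.255, with Lep at 0 in all 12 libraries. Markers of other cells differed between libraries. Replicate 1 of fasted Lpin1-/- liver had a cholangiocyte marker sum of 449 (17.8 to 100 RPKM in the others). Replicate 2 of refed Lpin1+/+ liver had a Kupffer cell marker sum of 197, against 33.5 and 57.5 in the other libraries of its group. That excess was mostly Cd5l (131 RPKM, against 8.2 and 5.96). Adgre1 and Vsig4 were also the highest of the group, but Clec4f was not (32.4, against 37.7 and 22.6). The same library had the highest neutrophil and lymphocyte marker sum of its group (93.2, against 12.5 and 4.51). Its cholangiocyte sum was also the highest (100, against 30.2 and 38.5) and its hepatocyte sum the lowest (32400, against 48400 and 60800). Its endothelial sum lay in between (34.9, against 46.3 and 21.8). Replicate 1 of fasted Lpin1+/+ liver had a neutrophil and lymphocyte marker sum of 120, against 15.8 and 10.4 in its group. It came from S100a8 and S100a9, while Cd79a and Cd3e lay within the range of the group. Stellate cell markers summed to 186 to 270 RPKM in fasted Lpin1-/- and 64.5 to 150 RPKM in fasted Lpin1+/+ liver without overlap. After refeeding the sums were 155 to 196 and 65.6 to 169 RPKM. Most of each sum was Dcn (179 to 264 against 61.8 to 144 RPKM after fasting). Of the other markers in that list, Des was also higher without overlap in fasted Lpin1-/- liver, while Lrat and Reln overlapped. The part of stellate cells in the genotype differences was not tested. In bulk tissue, fewer cells of a type and less RNA per cell cannot be told apart.

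**Figure D1:**
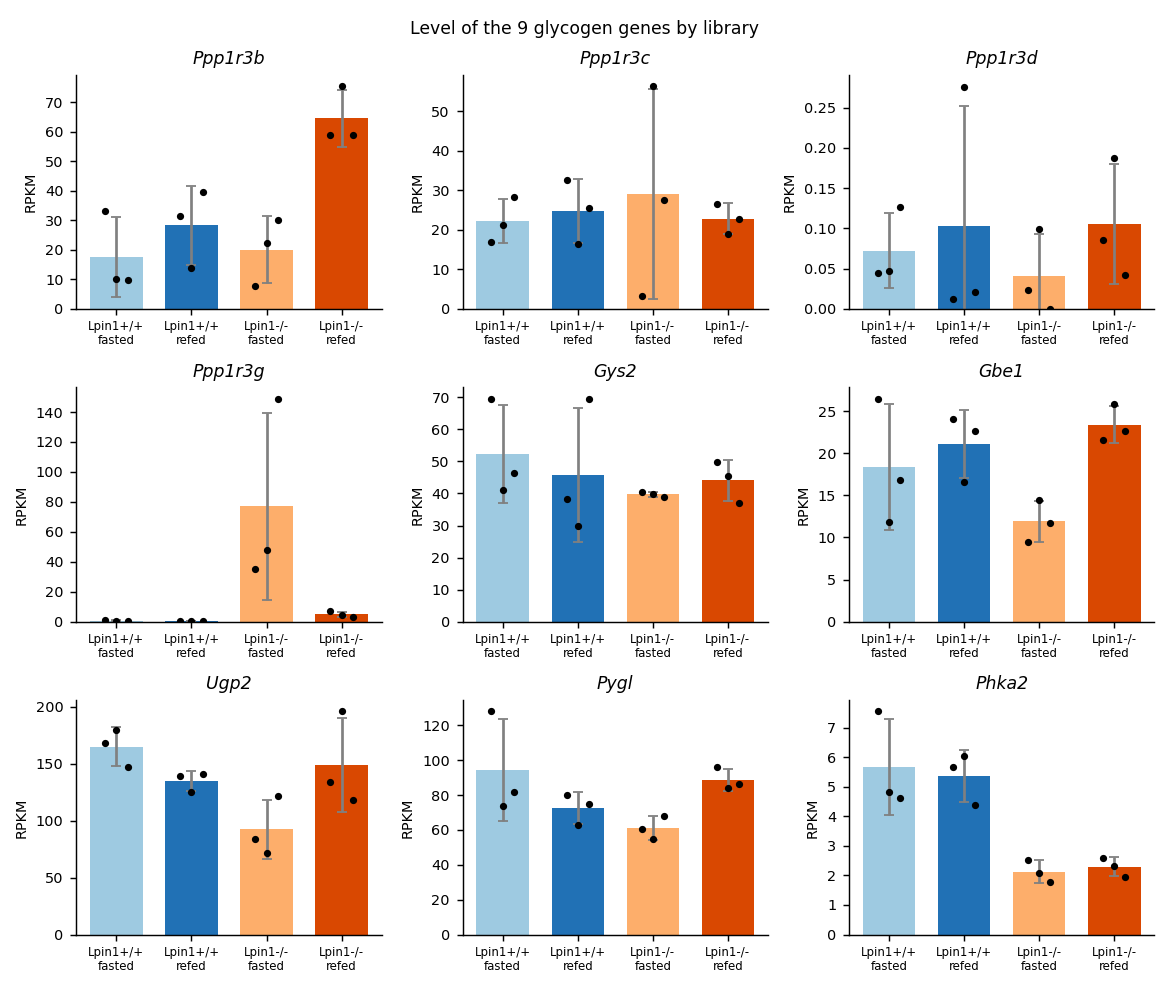
RPKM (y axis, linear from 0) of the 9 genes in the 4 groups; points are libraries, bars the mean, and error bars the SD of 3 libraries. Ppp1r3g stood at 34.9 to 149 RPKM in fasted Lpin1-/- liver and below 1 in all Lpin1+/+ libraries, and Phka2 was lower in all 6 Lpin1-/- libraries.

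Of the targeting subunits, Ppp1r3g varied most. Its level was 34.9, 47.7, and 149 RPKM in fasted Lpin1-/- liver and 6.88, 4.41, and 3.34 RPKM in refed Lpin1-/- liver. In Lpin1+/+ liver it was 0.895, 0.773, and 0.276 RPKM after fasting and 0.256, 0.196, and 0.205 RPKM after refeeding. No 2 neighbouring groups overlapped in the order fasted Lpin1-/-, refed Lpin1-/-, fasted Lpin1+/+, refed Lpin1+/+, although the lowest fasted Lpin1+/+ library (30 reads) and the highest refed one (25 reads) lay within counting error of each other. The mean of 77.1 ± 62.3 RPKM (SD, n = 3) in fasted Lpin1-/- liver was 119 times that of fasted Lpin1+/+ liver (0.648 ± 0.328), and the refed mean of 4.88 ± 1.81 was 22.3 times that of refed Lpin1+/+ liver (0.219 ± 0.0322). On the log2(RPKM + 1) scale, which understates the change of low values, Lpin1-/- liver was higher by 5.30 (SE 0.44) after fasting and 2.23 (SE 0.44) after refeeding. With 0.1 in place of 1 added, these became 6.51 and 3.91. Replicate 3 of fasted Lpin1-/- liver held 16616 of the reads of Ppp1r3g, against 3709 and 5359 in the others. Without it the fasted difference was 4.69 (SE 0.28). Kupffer cell markers summed to 105 to 221 RPKM in fasted and 29.8 to 78.4 RPKM in refed Lpin1-/- liver. The sum was lowest of the fasted group in replicate 3, the library highest in Ppp1r3g. Its markers were split in this, since Cd5l (12.9 RPKM) and Adgre1 (1.01) were lowest there, but Clec4f (65.9) and Vsig4 (14.9) in replicate 2. Neutrophil and lymphocyte markers summed to 50.4 to 173 RPKM in fasted and 23.8 to 52.3 RPKM in refed Lpin1-/- liver. The part of all these cells was not tested.

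The level of Ppp1r3g was lower after refeeding in both genotypes. In Lpin1-/- liver the log2 fold change of Ppp1r3g with refeeding was −3.49 (SE 0.44), a refed mean 0.0633 times the fasted one, and in Lpin1+/+ liver it was −0.41 (SE 0.44), where the refed mean was 0.338 times the fasted one at 24 to 101 reads per library. The feeding change differed between genotypes by −3.07 (SE 0.62) on the same scale. The genes most like Ppp1r3g over the 12 libraries, by Euclidean distance of scaled log2(RPKM + 1), were Tiprl, an inhibitor of protein phosphatase 2A-like enzymes, at a distance of 0.627 and Gadd45b, a stress-induced gene, at 0.635, where the median over all genes was 5.27. Mean Gadd45b was 5.75, 3.08, 165, and 19.2 RPKM in fasted Lpin1+/+, refed Lpin1+/+, fasted Lpin1-/-, and refed Lpin1-/- liver. Mean Tiprl was 13.6, 12.9, 34.4, and 17.7 RPKM in the same order. The scaling removes the size of a change, so a small distance does not mean changes of similar size.

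Ppp1r3b, the main subunit of liver, had its highest level in refed Lpin1-/- liver. It stood there at 59.1, 75.7, and 59.1 RPKM, above each of the other 9 libraries. After fasting it was 7.86, 22.4, and 30.0 RPKM in Lpin1-/- and 33.2, 9.95, and 9.68 RPKM in Lpin1+/+ liver, and refed Lpin1+/+ liver had 31.4, 13.7, and 39.7 RPKM. These 3 groups overlapped one another. In Lpin1-/- liver the refed mean of 64.6 ± 9.57 RPKM was 3.21 times the fasted mean of 20.1 ± 11.3 (log2 fold change 1.81, SE 0.55), and it was 2.28 times the mean of refed Lpin1+/+ liver, 28.3 ± 13.3 (log2 fold change 1.28, SE 0.55). In Lpin1+/+ liver the feeding change was 0.76 (SE 0.55), and the groups overlapped through replicate 1 of fasted Lpin1+/+ liver, without which it was 1.31. The nearest profiles were those of 2310061I04Rik (distance 0.992) and Cstf1 (1.05), against a median of 4.08 over all genes.

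Ppp1r3c, which also goes by the name protein targeting to glycogen, did not separate any of the groups. Its level was 17.0, 21.3, and 28.2 RPKM in fasted Lpin1+/+, 32.5, 16.3, and 25.5 RPKM in refed Lpin1+/+, and 26.6, 19.0, and 22.8 RPKM in refed Lpin1-/- liver. In fasted Lpin1-/- liver the libraries lay far apart, at 3.15, 56.4, and 27.5 RPKM. The low library is replicate 1, the one with the high cholangiocyte markers; the part of those cells in the value was not tested. The genotype difference after fasting was −0.26 (SE 0.72) with that library and 0.83 (SE 0.35) without it, and the feeding change in Lpin1-/- liver 0.32 (SE 0.72) and −0.78 (SE 0.35), so both directions rested on it. Without it the refed Lpin1-/- libraries lay below the remaining fasted ones. Its nearest profiles, Xrcc2 (1.59) and Emc10 (1.70), were less close than those of Ppp1r3b and Ppp1r3g.

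Ppp1r3d was close to absent. It had 0 to 27 reads per library (0 to 0.275 RPKM) and failed the minimum mean of 0.5 RPKM for a fit. Its 0 reads in replicate 3 of fasted Lpin1-/- liver allow up to 3 reads, or 0.0333 RPKM, for counting error alone, and the groups overlapped in all 4 comparisons. The highest value, 0.275 RPKM, was in replicate 2 of refed Lpin1+/+ liver, the library with the high Kupffer cell marker sum, mostly Cd5l. Of the family members outside the set, the muscle subunit Ppp1r3a reached at most 0.0905 RPKM, Ppp1r3e 0.528, and Ppp1r3f 0.377.

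**Figure D2:**
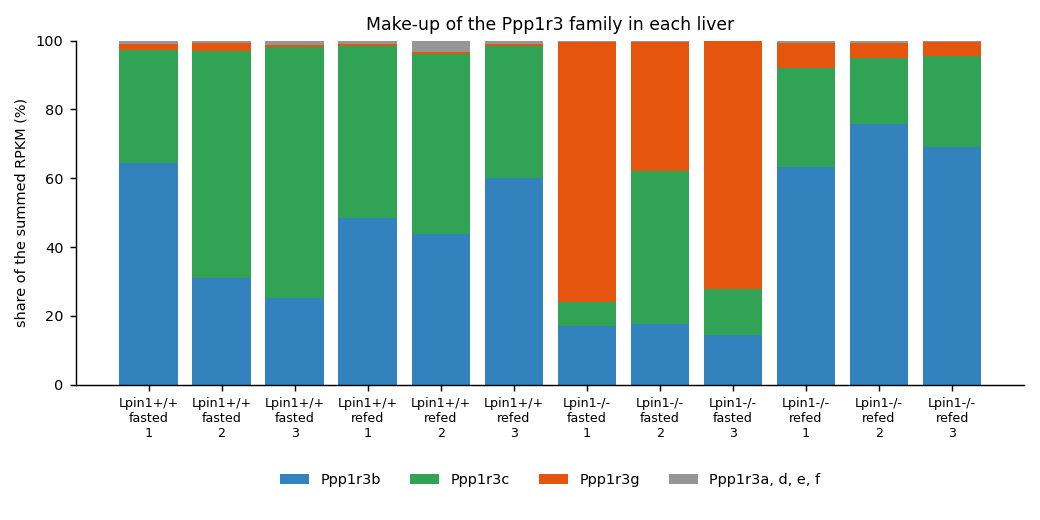
Share of the summed RPKM of 7 Ppp1r3 genes (y axis, percent) taken by Ppp1r3b, Ppp1r3c, Ppp1r3g, and the other 4 in each library. Ppp1r3g took 37.6 to 75.6% in fasted Lpin1-/- liver, 3.91 to 7.38% in refed Lpin1-/- liver, and at most 2.40% in Lpin1+/+ liver.

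Which subunit made up most of the family's RNA differed by group. Summed over the 7 genes, RPKM was 51.6, 32.3, and 38.6 in fasted Lpin1+/+ and 64.8, 31.3, and 66.1 in refed Lpin1+/+ liver, and 46.1, 127, and 207 in fasted and 93.2, 99.6, and 85.6 in refed Lpin1-/- liver. Ppp1r3g took 75.6, 37.6, and 72.0% of it in fasted Lpin1-/- liver, while Ppp1r3b took 17.1, 17.7, and 14.5% and Ppp1r3c 6.84, 44.4, and 13.3%. Ppp1r3g was thus the largest in replicates 1 and 3, and Ppp1r3c in replicate 2. After refeeding of Lpin1-/- mice the order turned, with 63.4, 75.9, and 69.0% for Ppp1r3b and 7.38, 4.42, and 3.91% for Ppp1r3g. In Lpin1+/+ liver Ppp1r3b and Ppp1r3c together made up nearly all of the sum in both states, Ppp1r3b 25.1 to 64.4% after fasting and 43.8 to 60.0% after refeeding. These shares are per coding length and carry the uncertainty of the counted reads given above.

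Among the synthesis enzymes, none separated the genotypes after refeeding. Ugp2 stood at 168, 180, and 147 RPKM in fasted Lpin1+/+ and at 84.2, 71.8, and 122 RPKM in fasted Lpin1-/- liver, without overlap (log2 fold change −0.85, SE 0.23). After refeeding it was 139, 125, and 141 RPKM in Lpin1+/+ and 134, 196, and 118 RPKM in Lpin1-/- liver, which overlapped (0.11, SE 0.23). With refeeding it was lower in Lpin1+/+ liver, again without overlap (−0.28, SE 0.23), and higher in Lpin1-/- liver with overlap (0.69, SE 0.23).

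Gys2 is the liver glycogen synthase. It was 69.5, 41.0, and 46.4 RPKM in fasted Lpin1+/+ liver and 40.5, 39.7, and 38.8 RPKM in fasted Lpin1-/- liver. These libraries did not overlap, but only by the gap between 40.5 and 41.0 RPKM, and they did overlap once the libraries were rescaled by their median ratio. Refed livers had 38.2, 30.0, and 69.6 RPKM in Lpin1+/+ and 49.9, 45.3, and 37.1 RPKM in Lpin1-/-. No fold change of Gys2 exceeded 0.35 on the log2 scale in size (−0.35, SE 0.29, for genotype after fasting). Its nearest profiles were Wwox at 2.13 and Gne at 2.16, the least close of the 4 genes for which neighbours were sought.

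Gbe1, the branching enzyme, was 26.5, 11.8, and 16.8 RPKM in fasted Lpin1+/+ and 9.52, 14.4, and 11.7 RPKM in fasted Lpin1-/- liver, with overlap. After refeeding it was 24.1, 16.6, and 22.6 RPKM and 21.6, 25.8, and 22.7 RPKM in the same order of genotypes. Only the feeding change in Lpin1-/- liver left no overlap, with a refed mean of 23.4 ± 2.21 RPKM, 1.97 times the fasted mean of 11.9 ± 2.47 (log2 fold change 0.93, SE 0.27).

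The breakdown side showed 2 different patterns. Pygl stood at 128, 73.8, and 81.6 RPKM in fasted Lpin1+/+ and at 60.7, 54.6, and 67.9 RPKM in fasted Lpin1-/- liver, so each Lpin1-/- library was lower (−0.58, SE 0.21). After refeeding it was 80.3, 62.6, and 75.0 RPKM in Lpin1+/+ and 96.0, 84.1, and 86.3 RPKM in Lpin1-/- liver, so each Lpin1-/- library was higher (0.29, SE 0.21). The refed Lpin1-/- libraries were also above the fasted ones (0.54, SE 0.21, or 0.29 after rescaling), whereas Lpin1+/+ liver changed by −0.34 (SE 0.21) with overlap as deposited and without it after rescaling. The feeding change differed between the genotypes by 0.87 (SE 0.30). Per coding length, the ratio of Gys2 to Pygl was 0.545 to 0.569 in fasted Lpin1+/+, 0.476 to 0.928 in refed Lpin1+/+, 0.571 to 0.727 in fasted Lpin1-/-, and 0.430 to 0.539 in refed Lpin1-/- liver. The fasted groups did not overlap in this ratio, but only by the gap between 0.569 and 0.571. The 2 feeding states of Lpin1-/- liver did not overlap in it either.

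Phka2, the regulatory alpha subunit of liver phosphorylase kinase, differed by genotype in both states and not by feeding. It was 7.55, 4.82, and 4.63 RPKM in fasted and 5.66, 6.03, and 4.38 RPKM in refed Lpin1+/+ liver. In Lpin1-/- liver it was 2.53, 2.09, and 1.77 RPKM after fasting and 2.59, 2.33, and 1.94 RPKM after refeeding. The mean in Lpin1-/- liver was 0.376 times that of Lpin1+/+ liver after fasting (log2 fold change −1.07, SE 0.21) and 0.427 times after refeeding (−0.95, SE 0.21), while the feeding changes were −0.05 and, with a sign that turned on rescaling, 0.07 (SE 0.21 each). All 6 Lpin1-/- libraries lay below all 6 Lpin1+/+ libraries. The values rest on 723 to 3118 reads per library.

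**Figure D3:**
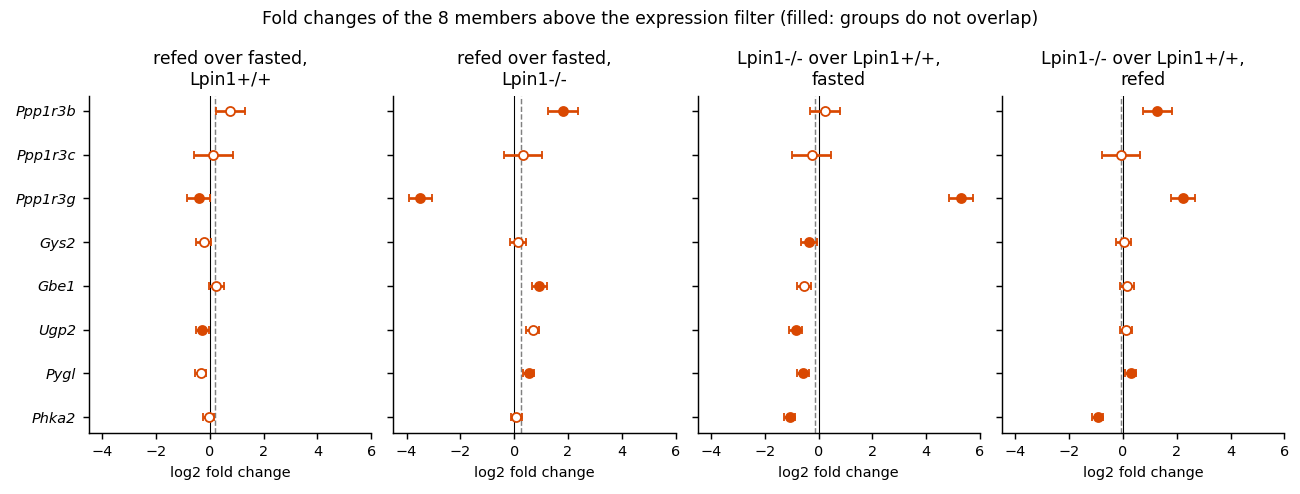
Log2 fold changes (x axis, log2(RPKM + 1) scale) with SE of the 8 members above the expression filter in 4 comparisons; filled points are members whose groups did not overlap, and the dashed line is the median of all 11507 genes. Ppp1r3g lies at 5.30 in the fasted genotype comparison and at −3.49 for refeeding in Lpin1-/- liver, and Phka2 near −1 in both genotype comparisons.

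Counted over all 9 members, the groups did not overlap for 2 members with refeeding in Lpin1+/+ liver (Ppp1r3g and Ugp2, both lower), where 18.1% of the 11507 genes above the expression filter (mean RPKM of 0.5 or more) did not overlap. They did not for 4 members with refeeding in Lpin1-/- liver (Ppp1r3b, Gbe1, and Pygl higher, Ppp1r3g lower), against 46.8% of all genes. By genotype it was 5 members after fasting (Ppp1r3g higher; Ugp2, Gys2, Pygl, and Phka2 lower), against 32.9%, and 4 after refeeding (Ppp1r3b, Ppp1r3g, and Pygl higher, Phka2 lower), against 33.9%. Since these contrasts were known when the members were chosen, nothing is read from the shares. The median log2 fold change of the 8 members above the filter was −0.14, 0.43, −0.45, and 0.14 in these 4 comparisons, where that of all genes was 0.19, 0.25, −0.14, and −0.07. After rescaling, the medians of all genes for refeeding became −0.0012 in Lpin1+/+ and 0.059 in Lpin1-/- liver. Set against the deposited median of all genes, the feeding changes in Lpin1-/- liver were 1.56 for Ppp1r3b, 0.68 for Gbe1, 0.29 for Pygl, and −3.74 for Ppp1r3g. The comparisons by feeding and by genotype share libraries, so their values are given side by side only.

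The other genes of glycogen metabolism show what happened around these members, and they were tested in the same limma fit, with Benjamini-Hochberg adjustment over all 11507 genes. Of the 43 such genes reported, 37 passed the expression filter: 15 of 20 other enzymes and phosphatase subunits, 7 of 8 genes of glucose entry and exit, and all 15 receptors and kinases that act on glycogen enzymes. The lists were written with earlier results of these data known.

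The first comparison asked how the genotypes differed in the fasted state. Of the 37 genes 8 passed the test, all lower in Lpin1-/- liver, against 18.8% of all genes. Lower was also the more common direction among all genes that passed (1520 lower and 648 higher). Among the enzymes 4 of 15 were lower and none higher. Stbd1, which binds glycogen and anchors it to membranes, had 8.97, 20.9, and 19.9 RPKM in Lpin1-/- and 72.8, 43.7, and 57.6 RPKM in Lpin1+/+ liver (log2 fold change −1.80, SE 0.31, adjusted p = 0.00303 by limma). The phosphoglucomutase Pgm2, which links glucose 1-phosphate with glucose 6-phosphate, had 17.7 to 43.3 RPKM against 46.1 to 98.7 (−1.20, SE 0.35, adjusted p = 0.0345). Both differences left a gap between the genotypes.

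Phkb, the beta subunit of the kinase that Phka2 belongs to, had 1.95 to 2.49 RPKM in Lpin1-/- and 3.35 to 5.98 RPKM in Lpin1+/+ liver (log2 fold change −0.75, SE 0.20, adjusted p = 0.0245 by limma). Epm2a, the glycogen phosphatase laforin, had 0.739 to 1.24 RPKM against 1.80 to 2.72 (−0.74, SE 0.19, adjusted p = 0.0179). So 2 subunits of phosphorylase kinase, the member Phka2 and the tested Phkb, were lower in each fasted Lpin1-/- library. Phkg2, the catalytic subunit of liver, had 23.2 to 23.8 RPKM in Lpin1-/- and 18.5 to 23.2 RPKM in Lpin1+/+ liver (0.15, adjusted p = 0.49). Phka1, a further subunit gene of this kinase, had 0.719 to 0.873 RPKM against 0.586 to 1.18 (−0.04, adjusted p = 0.902).

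Of the 7 genes of glucose entry and exit, only Slc2a2, the glucose transporter GLUT2 of hepatocytes, passed. It had 14.0, 15.2, and 13.2 RPKM in fasted Lpin1-/- and 87.5, 57.8, and 73.8 RPKM in fasted Lpin1+/+ liver (log2 fold change −2.27, SE 0.34, adjusted p = 0.00158 by limma). Of the 15 receptors and kinases 3 were lower and none higher. They were Prkaca, the catalytic subunit of protein kinase A (−1.16, SE 0.29, adjusted p = 0.0171), the insulin-signalling kinase Akt2 (−0.82, SE 0.24, adjusted p = 0.0333), and the glucagon receptor Gcgr (−0.71, SE 0.21, adjusted p = 0.0372).

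The count of 8 fell to 4 when replicate 1 of fasted Lpin1+/+ liver was left out and to 2 for replicate 3 of that group. It was 3 and 5 when replicates 1 and 2 of fasted Lpin1-/- liver were left out, and 5 for replicate 3 of refed Lpin1-/- liver. With the 6 fasted libraries alone, 2 genes passed. Stbd1 and Slc2a2 passed in each of 18 alternatives, whereas Gcgr passed in 6 of 18 and was lost, among others, on rescaling (−0.59, adjusted p = 0.188 by limma).

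In the refed state, 3 of the 37 genes passed, 1 higher and 2 lower in Lpin1-/- liver, against 6.67% of all genes. None of the 15 enzymes did (6 at an unadjusted p under 0.05 in limma). Of the genes lower after fasting, Slc2a2, Stbd1, Phkb, and Epm2a were also lower here without overlap, but did not pass. Their log2 fold changes were −1.23, −1.06, −0.62, and −0.44 (adjusted p = 0.0562, 0.0665, 0.0925, and 0.184 by limma). Pgm2, Akt2, and Prkaca overlapped. Slc37a4, the transporter that brings glucose 6-phosphate to glucose-6-phosphatase, had 220, 392, and 306 RPKM in Lpin1-/- and 111, 86.1, and 136 RPKM in Lpin1+/+ liver (log2 fold change 1.44, SE 0.38, adjusted p = 0.0473). This call sat close to the threshold and was lost with the replicate number as a block (adjusted p = 0.08 by limma). In this comparison same-numbered libraries deviated together only weakly (correlations of 0.186, 0.297, and 0.162), and no label pairs them. The alpha-1B adrenergic receptor Adra1b, through which catecholamines raise calcium and activate phosphorylase kinase, had 3.06, 2.65, and 2.64 RPKM in refed Lpin1-/- and 21.7, 17.8, and 19.1 RPKM in refed Lpin1+/+ liver (−2.44, SE 0.23, adjusted p = 4.84e-04). Gcgr had 61.0 to 84.7 RPKM against 131 to 166 (−0.99, SE 0.21, adjusted p = 0.0208), a call lost in 6 of 18 alternatives, rescaling among them (−0.87, adjusted p = 0.101). Without single libraries the count of 3 ranged from 1 to 5.

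With refeeding of Lpin1+/+ mice none of the 37 genes passed (6 at an unadjusted p under 0.05 in limma), against 1.72% of all genes. In Lpin1-/- liver 7 of the 37 passed, 6 higher and 1 lower, against 20.7% of all genes. Most of all genes that passed were likewise higher (2046 higher and 336 lower). Among the enzymes Stbd1 had 8.97 to 20.9 RPKM fasted and 38.5 to 48.3 RPKM refed (log2 fold change 1.38, SE 0.31, adjusted p = 0.0106), and Gys1, the synthase of muscle and other tissues, had 0.229 to 0.779 and 1.22 to 2.40 RPKM (0.78, SE 0.22, adjusted p = 0.0274).

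Of the 15 receptors and kinases 4 were higher in refed Lpin1-/- liver: Prkar2a, a regulatory subunit of protein kinase A (log2 fold change 1.51, SE 0.47, adjusted p = 0.0398 by limma), Prkaca (1.17, SE 0.29, adjusted p = 0.0157), Akt1 (0.89, SE 0.26, adjusted p = 0.0316), and Akt2. Adra1b was lower, at 10.6, 14.4, and 6.57 RPKM fasted and 3.06, 2.65, and 2.64 RPKM refed (−1.55, SE 0.23, adjusted p = 0.00165). The call of Prkar2a was lost in 10 of 18 alternatives and that of Akt1 in 5. The count of 7 became 3 when replicate 1 of fasted Lpin1-/- liver was left out, 2 for replicate 2 of refed Lpin1-/- liver, and 4 for replicate 1 or 3 of the latter.

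The feeding changes themselves differed between genotypes for 1 of the 37 genes, against 1.28% of all genes. Adra1b changed by −1.55 with refeeding in Lpin1-/- liver and had a fold change of 0.76 in Lpin1+/+ liver (adjusted p = 0.152), a difference of −2.31 (SE 0.33, adjusted p = 0.00923 by limma). For the other 36 genes a difference of the feeding changes was not shown.

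**Figure D4:**
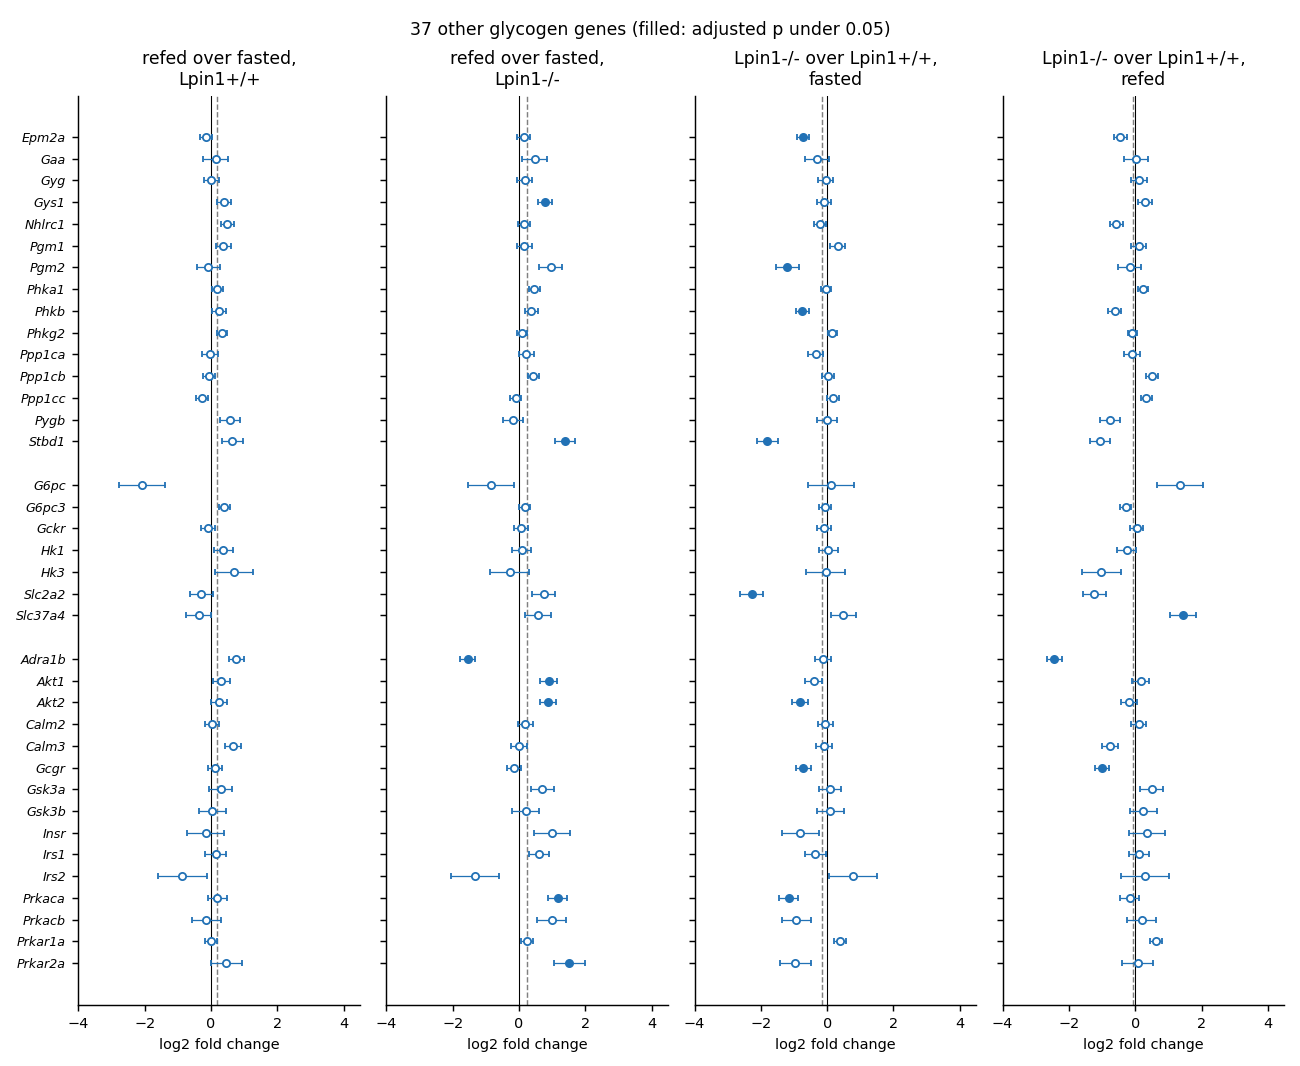
Log2 fold changes with SE of 37 other glycogen genes (top, enzymes and phosphatase subunits; middle, glucose entry and exit; bottom, receptors and kinases) in 4 comparisons; filled points passed an adjusted p of 0.05 and the dashed line is the median of all genes. In the fasted genotype comparison all 8 filled points lie to the left of 0, and Adra1b is the farthest to the left after refeeding.

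Exon usage was not used to choose the members, so it was tested. The authors deposited counts of reads that include or skip a cassette exon in each library, in the order of an unnumbered list. Which of the 2 lists in a table is Lpin1+/+ was read from a match of its counts to another deposited table, and every direction given for exons rests on that match. Both counts were divided by the length of their form, and changes are given as log2 of inclusion over skipping. They were tested with limma for events with at least 10 counts in each library. Such events were found for Gys2, Ugp2, Pygl, Phka2, and Ppp1r3b, and after refeeding also for Gbe1. Ppp1r3d had none, and those of Ppp1r3c and Ppp1r3g fell below the minimum.

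By genotype after fasting, 11 of 50 events of the members passed (22.0%), against 11.3% of all 69644 events. They lie between 6 different pairs of flanking exons in Gys2, Ugp2, and Pygl, so several are versions of 1 event. In Gys2 an exon of 46 bases at chr6:142452937-142452982, not an exon in GENCODE M21, had 0 inclusion counts in the 3 Lpin1+/+ libraries and 19, 16, and 8 in the Lpin1-/- libraries, beside 310, 445, and 456 skipping counts (5.28, SE 0.79, adjusted p = 0.00157). In Ugp2 an unannotated exon of 71 bases at chr11:21367570-21367640 had 0 inclusion counts in Lpin1+/+ and 6, 9, and 18 in Lpin1-/- liver, or 1.34, 1.41, and 1.26% inclusion (5.61, SE 0.75, adjusted p = 9.18e-04). Both insertions were thus rare forms, and where a form has no counts the size of the ratio depends on the 0.5 added to each count.

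Skipping of annotated coding exons was seen as well. Exon 12 of 17 of Gys2, chr6:142445986-142446112 on the minus strand, was skipped in 18, 4, and 7 counts in the fasted Lpin1-/- libraries and in none of the Lpin1+/+ libraries, with 96.5, 99.3, and 98.7% inclusion against 100% (−4.47, SE 0.84, adjusted p = 0.00502). It is shown because it is the whole coding exon of Gys2 that passed, and its 127 bases leave a remainder of 1 after division by 3 (GENCODE M21, GRCm38).
Gys2 exon 12: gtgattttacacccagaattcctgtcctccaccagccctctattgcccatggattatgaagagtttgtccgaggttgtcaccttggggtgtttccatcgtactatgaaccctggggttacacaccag

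The exon of Pygl at chr12:70195504-70195711 had 9, 20, and 6 skipping counts in fasted Lpin1-/- and 0, 2, and 2 in fasted Lpin1+/+ liver (−3.40, SE 0.96, adjusted p = 0.0382). After refeeding it had 7, 4, and 4 skipping counts in Lpin1-/- and 0 in all 3 Lpin1+/+ libraries, a difference of nearly the same size that did not pass (−3.08, SE 0.66, adjusted p = 0.0628). The exon of Ugp2 at chr11:21328871-21329113 had 1, 3, and 2 against 0 in all 3 Lpin1+/+ libraries (−3.02, SE 0.82, adjusted p = 0.0315). Even so, inclusion of the Pygl exon was at least 98.2% and that of the Ugp2 exon at least 99.8% in each library. Other calls of Ugp2 also rested on few counts. Its exon at chr11:21329725-21329922 had 4, 1, and 1 skipping counts in fasted Lpin1-/- liver (adjusted p = 0.043 by limma). Unannotated exons at chr11:21364535-21364579 and chr11:21364546-21364579 had 0, 5, and 2 and 0, 1, and 3 inclusion counts there (adjusted p = 0.0453 and 0.0495). Lpin1+/+ liver had 0 of each. The calls depended on the method, since 2 of the 50 events passed with weights for the precision of the counts, the 71-base exon of Ugp2 and a 187-base exon of Gys2, and 4 to 13 with single libraries left out. With at least 10 counts of each form required, a condition chosen after seeing the data, 7 of 15 passed, where 25.5% of all events did.

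After refeeding no event of the members passed by genotype (0 of 48, 9 at an unadjusted p under 0.05 in limma), against 0.97% of all events. With refeeding 1 of 21 events passed in Lpin1-/- liver, against 7.8% of all events, as did 0 of 21 in Lpin1+/+ liver (1 at an unadjusted p under 0.05), where 0% of 28444 events passed. The 1 event was an unannotated exon of Gys2 of 187 bases at chr6:142454127-142454313. Its inclusion was 3.97, 4.36, and 3.28% in fasted and 0.502, 1.01, and 0.900% in refed Lpin1-/- liver (−2.34, SE 0.57, adjusted p = 0.021), beside 0.764, 0.946, and 1.97% in fasted and 1.04, 1.33, and 0.849% in refed Lpin1+/+ liver. Fasted Lpin1-/- liver was thus above all other libraries in it, but the genotype difference after fasting did not pass (1.79, SE 0.69, adjusted p = 0.119 by limma). The call for refeeding was lost when the first or second listed library of fasted Lpin1-/- liver, or the first of refed Lpin1-/- liver, was left out. Without the last listed fasted one 2 events passed.

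The event of Gys2 with the most counts of its rarer form concerned 51 bases at chr6:142423394-142423444, within an annotated coding exon. Their inclusion was 63.9, 62.6, and 74.0% in fasted Lpin1+/+ and 73.5, 77.9, and 76.1% in fasted Lpin1-/- liver. After refeeding inclusion was 63.2, 66.3, and 63.2% in Lpin1+/+ and 74.3, 79.2, and 82.1% in Lpin1-/- liver. The refed libraries did not overlap, but the difference of 1.03 (SE 0.50) did not pass (adjusted p = 0.394 by limma). It passed with precision weights, where it was 1 of the 48 events. The noncoding second exon of Ppp1r3b, chr8:35376567-35376753, was included in 47.9 to 83.0% after fasting and 62.0 to 83.8% after refeeding, with overlap of the genotypes in both states (adjusted p = 0.79 and 0.528 by limma). In Phka2 an unannotated exon of 123 bases at chrX:160562034-160562156 had 10, 15, and 1 inclusion counts in refed Lpin1+/+ and 0 in all refed Lpin1-/- libraries, a difference that did not pass (adjusted p = 0.197). The annotated Gbe1 exon at chr16:70401734-70401849 was skipped in 4 counts of 1 refed Lpin1-/- library and nowhere else (adjusted p = 0.77). In Ugp2 an unannotated exon of 214 bases at chr11:21367427-21367640 had 21, 15, and 3 inclusion counts in refed Lpin1-/- liver. Refed Lpin1+/+ liver had 0, 0, and 8, a difference that did not pass (adjusted p = 0.35 by limma).

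**Figure D5:**
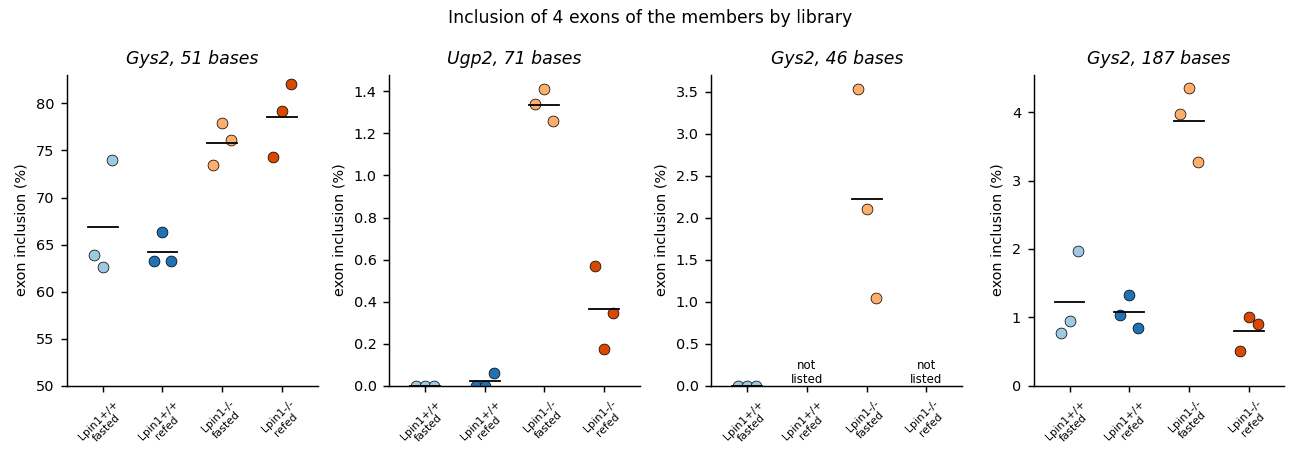
Inclusion (y axis, percent of length-normalized counts; the first axis starts at 50) of 4 exons in Gys2 and Ugp2, by group; points are libraries and lines the mean, and the 46-base exon is not listed for refed livers. The 187-base exon of Gys2 lies at 3.28 to 4.36% in fasted Lpin1-/- liver and at most 1.97% elsewhere.

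Ppp1r3g has 2 coding transcripts in GENCODE M21, whose starts lie 9014 bases apart on chromosome 13, and both lead to the same exon from position 35968158, which holds the whole coding part. The promoter window printed above, chr13:35967656-35967955, holds the downstream of these starts, at 35967853. It was built on a RefSeq start at another base, and the distances given for its matches count from the RefSeq start. Reads from the upstream one were found mostly in Lpin1-/- liver, the genotype with more reads of the gene as a whole. Reads that join the upstream first exon, which ends at 35958996, directly to that exon numbered 18, 18, and 57 in fasted Lpin1-/- and 0 in fasted Lpin1+/+ liver. Counts of an unannotated exon between them, chr13:35960294-35960492, were 49, 204, and 202 in fasted Lpin1-/- and 6, 2, and 0 in fasted Lpin1+/+ liver. After refeeding a version of this exon, chr13:35960294-35960484, had counts of 176, 124, and 77 in Lpin1-/- and 0, 1, and 2 in Lpin1+/+ liver. These events lie in the noncoding part before the start codon, and they were not tested because Lpin1+/+ liver had fewer than 10 counts in each library. The antisense gene Gm30127 overlaps 6170 bases there. The kit kept strand, but how the gene and exon counts used strand is not given in the sources used here.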

How the data were processed

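RNA was extracted from whole liver and sequenced as paired reads with a stranded TruSeq kit. The authors aligned reads to GRCm38 with HISAT2 (2.0.5), counted them per gene with HTSeq (0.6.0), and deposited RPKM per library. The authors also deposited counts of inclusion and skipping reads for cassette exons from rMATS, listed by group without replicate numbers. The exon tables do not name their lists: the Lpin1+/+ list was taken to be the one whose inclusion counts were found again in a deposited subset that compares fasted with refed Lpin1+/+ liver (identical in 1513 of 1513 shared events in the fasted and 1712 of 1712 in the refed table, against 2 and 1 for the other list). That subset was used for nothing else, and the other subsets and the columns of fold changes, p-values, and enriched terms were not used.

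The 9 members and the lists of other genes were chosen with earlier results of these data known, and a few genes of the lists are not reported here. Groups and replicate numbers came from sample titles, and replicates are separate mice. Genes whose RPKM averaged 0.5 or more entered limma (3.58.1, R 4.3.3) as log2(RPKM + 1), with 1 mean per group over all 12 libraries and Benjamini-Hochberg adjustment. For exons, log2 of the length-normalized ratio (0.5 added to each count) was fitted with limma by feeding state, or over the 28444 events listed in both states for refeeding. Both fits recovered known changes in simulated data. The exon simulation changed only well-counted events of intermediate inclusion, so it cannot tell how the fit does for the rare forms called among the members.

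Among the other genes, up to 4 were named per list and comparison, those with an adjusted p under 0.05, no overlap of the groups, and the largest fold change, plus genes that complete a count. The 2 nearest profiles were named for 4 members. Exon events past the threshold were named, save further versions of a named event, and per member the event with the most counts of its rarer form. Reads per gene were recovered from RPKM steps, with a length that matched the coding part within 5% for 85.5% of the 5197 genes whose transcript is over 20% longer than it.

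Correlations of same-numbered libraries (deviations from group means) lay between −0.474 and 0.743, with 8 of 18 over 0.1. Of the groups compared, only the refed pair of genotypes had all 3 over 0.1 (0.186, 0.297, and 0.162). This is at most a hint that the numbers pair the refed libraries, from the data and not from the design. The main fit used no pairing, and the replicate block was run only as an alternative, for all comparisons. Fasted Lpin1+/+ and refed Lpin1-/- liver, which share neither genotype nor feeding state, had higher values (0.743, 0.545, and 0.39). A shared number thus gives no sure pairing. Depth was 94.0 to 125.6 M reads, and read floors cover counting error only. Alternatives were another pseudocount, filters, rescaling by the median ratio, a replicate block, the 2 groups alone, single libraries left out, and for exons other minimum counts, 1 added, and precision weights.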

Additional observations from a re-analysis of the deposited data

Results flagged for a closer look

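The feeding change of Adra1b, an adrenergic receptor of hepatocytes, differed between genotypes by −2.31 on the log2 scale. It had 10.2, 12.0, and 11.2 RPKM in fasted and 21.7, 17.8, and 19.1 RPKM in refed Lpin1+/+ liver, so that all refed libraries were higher, and all refed libraries were lower in Lpin1-/- liver.

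Pygl differed by genotype in opposite directions in the 2 feeding states without overlap in either, by 0.29 after refeeding and −0.58 after fasting on the log2 scale. The difference was not tested, since the levels of Pygl were among the values that chose the members.

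Exon counts outside the test were found for 2 targeting subunits. Ppp1r3g had 455 inclusion counts in the 3 fasted Lpin1-/- libraries for the exon between its upstream first exon and its coding exon, against 8 in Lpin1+/+ liver, and 377 against 3 for the version listed after refeeding. Ppp1r3c had 48 inclusion counts in fasted Lpin1-/- liver (1, 34, and 13) for an unannotated exon of 123 bases, chr19:36736341-36736463, against 2 in Lpin1+/+ liver (1, 1, and 0). Its inclusion was 4.26, 3.67, and 2.92% in Lpin1-/- and 0.381, 0.255, and 0% in Lpin1+/+ liver, and 1 Lpin1-/- library held 9 counts of the event in all, under the minimum.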

How the results depend on the processing

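The 15 member changes without overlap kept their sign in all alternatives run. Of the 17 with overlap, 13 turned sign in at least 1, 4 of them by rescaling (among them refeeding in Lpin1-/- liver for Gys2, 0.14 to −0.11, and Phka2, 0.07 to −0.10). Without replicate 1 of fasted Lpin1-/- liver, the Ppp1r3c changes became 0.83 (genotype after fasting), −0.78 (refeeding in Lpin1-/- liver), and −0.91 (their difference between genotypes). Of 18 calls of named other genes, 6 were kept in each alternative run and 12 were lost in at least 1.

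For refeeding the count of 0 other genes in Lpin1+/+ liver stayed 0 in each alternative, and leaving out single libraries gave 2 to 8 in Lpin1-/- liver. For genotype after fasting the count of 8 became 2 with the 2 groups alone and 2 to 8 without single libraries. After refeeding the count of 3 became 1 to 5 without single libraries. It was 1 without replicates 1 or 3 of refed Lpin1+/+ liver or without any 1 refed Lpin1-/- library, and 5 without replicate 1 of fasted Lpin1+/+ liver. The single call for the difference of feeding changes was kept throughout. With the replicate block the counts were 0 and 5 for refeeding in Lpin1+/+ and Lpin1-/- liver, and 7 and 2 for genotype after fasting and refeeding. The block ended the calls of Slc37a4 after refeeding, of Akt1 and Prkar2a for refeeding in Lpin1-/- liver, and of Gcgr after fasting (adjusted p = 0.08, 0.0578, 0.0571, and 0.0609 by limma), and changed no other named call.

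The count of exon events for refeeding in Lpin1-/- liver became 2 with 1 added, 4 with precision weights, and 0 to 2 without single libraries. For genotype after fasting it became 2 with precision weights, 7 of 15 with at least 10 counts of each form, and 4 to 13 without single libraries. It was 4 without the first and 5 without the second listed Lpin1+/+ library, 4 without the last, and 6 and 4 without the first and second Lpin1-/- library. After refeeding the 0 became 1 with 1 added, 1 with precision weights, and 2 with at least 10 counts of each form. No paired analysis was possible for exons because their lists carry no replicate numbers. The causes were not tested. With 3 mice per group, p-values of single genes close to 0.05 move with the libraries used.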
